A study of Mus musculus with 8 samples.

Results

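Malat1, Neat1 and Kcnq1ot1, long noncoding RNAs that stay in the nucleus, and Gm42418, AY036118, Gm26917 and Lars2, a set that has been grouped as derived from ribosomal RNA, were followed through single crypt cells of the mouse small intestine. They are 7 of the 27998 genes in the deposited count tables and were found there by their symbols, with all 7 present once. They were chosen by their measured levels, as these moved with the number of molecules per barcode, between cell types and between genotypes, so all these values are given as descriptions and without a test. EpCAM+ DAPI- cells of small intestinal crypts from adult mice of C57BL/6 background were captured with 10x Genomics 3′ chemistry, which counts unique molecular identifiers (UMIs), 1 per captured RNA molecule. The KO mice were homozygous for a CRISPR/Cas9 deletion of ieCtnnb1, an enhancer upstream of Ctnnb1, the gene for β-catenin. The controls, labelled WT, are described in the study as H11 i.enh reporter mice, which carry a LacZ-iCre cassette under the Shh promoter and the ieCtnnb1 core region at the H11 locus. The sources differ on the number of animals, with 4 labelled samples per genotype but cells of 2 female mice per genotype described as pooled, and each genotype is 1 matrix with no map from cells to animals, so genotype, library and animals cannot be told apart and no difference below has a replicate check.

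Malat1 is an abundant long noncoding RNA of nuclear speckles, and Neat1, its neighbor on chromosome 19, is the scaffold of paraspeckles. Kcnq1ot1 is transcribed from the paternal chromosome inside Kcnq1 and silences genes of that imprinted domain in cis. Gm42418, AY036118 and Gm26917 are annotated as long intergenic noncoding RNAs on chromosome 17. Gm42418 and AY036118 overlap a copy of 18S ribosomal RNA there, and Gm26917 lies beside it. They are called rRNA-like below for this position. Lars2 encodes the mitochondrial leucyl-tRNA synthetase. Ribosomal RNA is made in the nucleolus from many near-identical repeats, so reads assigned to 1 such copy can come from others and these values are uncertain in origin. In droplet data, transcripts held in the nucleus and transcripts encoded in mitochondria are commonly followed as signs of the state of the captured cell.

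On GRCm38 the rRNA-like locus spans 3 members. Gm26917 lies on the plus strand at chr17:39843013-39846341 and ends 12 bases before Rn18s-rs5, the 18S pseudogene of RefSeq at chr17:39846354-39848202. Gm42418, a single exon on the plus strand at chr17:39846958-39848788, has 1245 of its 1831 bases inside that pseudogene and 586 after it, and RefSeq gives its name as a synonym of Rn18s-rs5. AY036118 lies on the minus strand at chr17:39847113-39848035, and its 923 bases are the reverse complement of bases 156 to 1078 of Gm42418. Whether the counting used strand was not given in the sources used here; without strand, UMIs of Gm42418 and AY036118 cannot be told apart. The 60 bases of Gm42418 around the end of the pseudogene (plus strand, chr17:39848173-39848232, GENCODE M21) are shown because they join 18S sequence, in capitals, to the sequence that follows it.
Gm42418 junction: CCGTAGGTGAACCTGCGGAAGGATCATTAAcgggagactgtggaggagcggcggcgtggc
The next pair shows the overlap of Gm42418 with the start of AY036118, both read 5′ to 3′ from chr17:39847996-39848035; the capitals mark 20 bases that are complementary between them.
Gm42418 sense: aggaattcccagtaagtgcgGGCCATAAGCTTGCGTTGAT
AY036118 antisense: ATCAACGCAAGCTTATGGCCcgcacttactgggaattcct

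**Figure D1:**
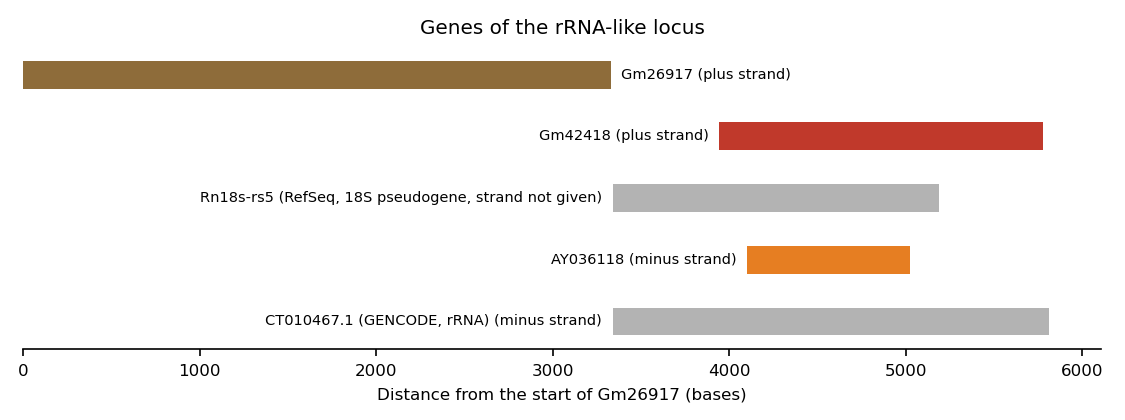
Bars show the extent of 3 members (colored) and of the rRNA annotations (gray) on chromosome 17 of GRCm38; the horizontal axis is the distance in bases from the start of Gm26917. Gm42418 runs past the end of the 18S pseudogene by 586 bases, and AY036118 lies wholly inside both, on the opposite strand from Gm42418.

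Lars2 (chr9:123366927-123462666, plus strand) shared no long stretch with these genes in its main transcript. The longest exact match between that transcript and those of Gm42418, AY036118 and Gm26917, on either strand, was 11, 11 and 12 bases. With the mitochondrial rRNAs mt-Rnr1 and mt-Rnr2 it was 14 and 12 bases. The transcript has 3894 bases, whereas the annotated exons of Lars2 cover 11089, and the rest of the exon sequence was not searched. Besides the mitochondrial rRNAs, only the rRNA-like locus was compared. An origin of Lars2 from other rRNA sequence therefore cannot be decided here. Malat1 (chr19:5795690-5802672) and Neat1 (chr19:5824708-5845478) lie on the minus strand with 22035 bases between them. Kcnq1ot1 (chr7:143203458-143296549, minus strand, 93092 bases) lies wholly within Kcnq1 on the opposite strand, so its UMIs are uncertain for the same reason as those of AY036118. Because the chemistry primes on runs of A, the longest such run in each annotated transcript was found. It was 41 bases in Kcnq1ot1, a length met in 0.0176% of the 141767 GENCODE M21 transcripts, 12 bases in Malat1 (4.07% of transcripts) and 7 in Neat1. It was 6 in Gm42418 and Lars2 and 4 in AY036118 and Gm26917, and 87.5% of all transcripts have a run of at least 4. Among transcripts of like length a run as long was met in 11.1% of 9 for Kcnq1ot1, 13.9% for Malat1 and 80.4% for Neat1. These shares count the transcript itself, and for Kcnq1ot1 no other of the 9 had such a run. The runs of Kcnq1ot1 (chr7:143226933-143226997), Malat1 (chr19:5795976-5796011) and Gm42418 (chr17:39847155-39847184) are shown 5′ to 3′ on the strand of the gene, with the run in capitals.
Kcnq1ot1 A run: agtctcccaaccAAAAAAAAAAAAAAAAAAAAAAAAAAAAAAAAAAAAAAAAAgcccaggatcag
Malat1 A run: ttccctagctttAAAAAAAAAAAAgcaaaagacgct
Gm42418 A run: gcgtttactttgAAAAAAttagagtgttca

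There were 15987 barcodes for WT (median depth 5093 UMIs) and 12763 for KO (median depth 1975). Cells with at least 200 genes and at most 30% mitochondrial UMIs, called kept cells below, numbered 13095 in WT (median 6675 UMIs) and 8658 in KO (8692 UMIs); 17.2% of WT and 32.2% of KO barcodes were over the mitochondrial limit. The matrices shared 57 barcode sequences, of which 29 were kept in both. Ctnnb1, the target of the deleted enhancer, stood at 119 CPM (UMIs per 1000000 UMIs) in kept WT cells and 91.8 in KO. Epcam, the marker used for sorting, stood at 845 and 1070 CPM, while the immune, stromal and erythroid marker lists summed to 285, 39 and 8 UMIs in kept WT cells and to 178, 13 and 0 in KO. Intervals below are exact 95% intervals that cover counting error only, and levels are compared within a gene, not between genes, because they are not scaled by length.

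The share of UMIs taken by the members fell steeply as barcodes became deeper. Barcodes were divided into 4 depth quartiles by their total UMIs, with medians of 933, 2101, 7460 and 21420 UMIs in WT and 757, 1426, 6550 and 23806 in KO. In WT the 7 members together made up 9.57%, 4.84%, 1.92% and 0.635% of all UMIs from the shallowest to the deepest quartile, and in KO 3.08%, 1.83%, 0.734% and 0.199%. All 7 members in WT and 6 in KO were at least 2-fold higher in the shallowest than in the deepest quartile, against 19.2% of 11250 genes in WT and 11.8% of 11393 in KO; none was 2-fold lower, as were 2.83% and 8.18% of genes. These contrasts were among the values that chose the members, and nothing is read from the counts.

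Gm42418, which held the most UMIs of the members in WT, varied widely in its share. In WT it fell from 75447 CPM in the shallowest quartile through 35037 and 12930 to 4309 CPM in the deepest, a log2 ratio of shallowest to deepest of 4.13 (4.12 to 4.14), which ranked 15 of 11250 genes. Counted per barcode instead, its mean was 70.2, 90.5, 99.4 and 97.2 UMIs over the same quartiles, so the number of molecules per barcode changed far less than the total. In KO the levels were 11935, 7244, 2375 and 607 CPM (log2 ratio 4.30, 4.28 to 4.32) and the means 9.25, 10.5, 15.7 and 18.2 UMIs per barcode. AY036118, the antisense partner, had log2 ratios of 4.74 (4.72 to 4.77) in WT, where its mean stayed between 5.80 and 7.13 UMIs per barcode in all quartiles, and 3.91 (3.79 to 4.03) in KO. Lars2 followed with 3.93 (3.88 to 3.98) in WT and 3.61 (3.46 to 3.75) in KO. Gm26917, upstream of the 18S copy, had ratios of 3.23 (3.15 to 3.30) and 2.60 (2.42 to 2.78), and its mean rose from 0.540 to 1.40 UMIs per barcode in WT.

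The nuclear noncoding RNAs changed less evenly with depth. Malat1 fell from 11068 CPM in the shallowest quartile through 9412 and 4820 to 1555 CPM in WT and from 17754 through 10355 and 4650 to 1273 CPM in KO, log2 ratios of 2.83 (2.82 to 2.85) and 3.80 (3.79 to 3.82). Its mean per barcode went from 10.3 through 24.3 to 37.0 and 35.1 UMIs in WT, and that of Gm42418 from 70.2 to between 90.5 and 99.4, so both were lowest in the shallowest quartile, Malat1 by the larger factor. Neat1 had log2 ratios of 2.47 (2.39 to 2.55) in WT and 3.38 (3.29 to 3.47) in KO. Kcnq1ot1 was the exception. Its WT level held at 24.98, 28.9 and 26.7 CPM over the first 3 quartiles and was 7.84 CPM in the deepest (log2 ratio 1.67, 1.34 to 1.98), whereas in KO it was 2.43, 4.99, 3.83 and 2.35 CPM, with 6 UMIs in the shallowest quartile and a ratio of 0.04 (−1.42 to 1.19).

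**Figure D2:**
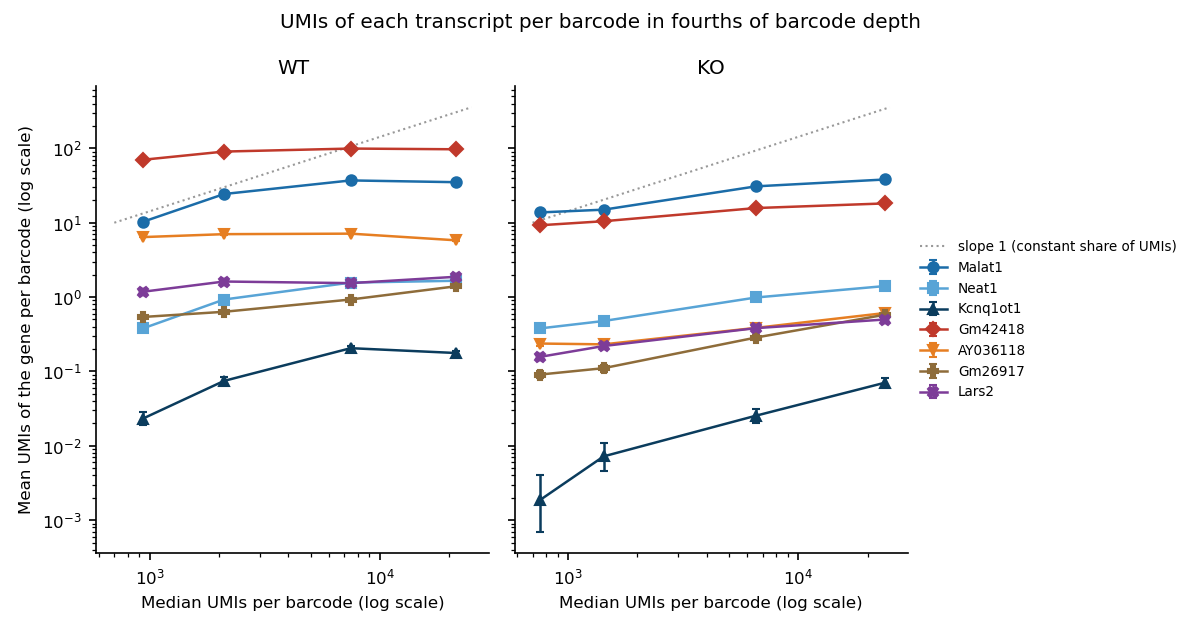
Mean UMIs of each transcript per barcode (vertical axis, log scale) against the median UMIs per barcode (horizontal axis, log scale) in the 4 depth quartiles of each matrix; bars are 95% counting intervals and the dotted line is the slope of a constant share. In WT Gm42418 stays between 70.2 and 99.4 UMIs and AY036118 between 5.80 and 7.13, while Malat1 spans 10.3 to 37.0 and Kcnq1ot1 0.0233 to 0.205.

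Lists of genes related to the members by function or position were read for the same depth ratios. Of 16 mitochondrial aminoacyl-tRNA synthetases other than Lars2, none was 2-fold higher in the shallowest quartile in either matrix and 1 in WT and 2 in KO were 2-fold lower, with medians of 0.04 in WT and −0.36 in KO on the log2 scale. Of 5 other nuclear long noncoding RNAs that could be tested, 3 in WT and 1 in KO were at least 2-fold higher in the shallowest quartile. Xist, the RNA that coats the inactive X chromosome, had ratios of 1.17 and 0.06, and Airn, a long imprinted antisense RNA, 1.10 and −0.01. Of 15 proteins of paraspeckles and speckles, 2 were higher in WT and none in KO, where 1 was lower; Srrm2, a scaffold protein of nuclear speckles, had ratios of 1.03 and 0.15. Snhg18, a host of a small nucleolar RNA, had −0.56 and −0.63, and none of the 5 tested hosts was 2-fold higher or lower. Of 17 genes of rRNA transcription and processing 1 was higher in each matrix and 1 lower in WT, of 10 genes of the Kcnq1 domain 2 in WT and none in KO, and of 4 genes beside Malat1 and Neat1 none in either.

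In WT the median mitochondrial share went from 23.9% in the shallowest quartile through 13.0% and 7.34% to 1.89% in the deepest. In KO it was 13.6%, 49.0%, 12.1% and 4.73%. With mitochondrial UMIs left out of the total, the depth ratio in WT went from 2.83 to 3.25 for Malat1 and from 4.13 to 4.55 for Gm42418. In KO it went from 3.80 to 4.06 and from 4.30 to 4.56. This changes the total alone, and any other part of the mitochondrial share in the depth ratios was not tested. In WT the Gm42418 level rose from 3842 CPM in barcodes with under 2% mitochondrial UMIs to 65306 CPM at 30 to 50%, with means of 75.3 and 84.6 UMIs per barcode. Above 50% it was lower, at 47518 CPM and 59.5 UMIs per barcode. Malat1 rose from 1202 CPM to 9808 CPM at 20 to 30% and was 3713 CPM, or 4.65 UMIs per barcode, above 50%. In KO Malat1 was highest at 30 to 50%, with 10110 CPM, and was also lower above 50%, at 7173 CPM and 11.5 UMIs per barcode. Gm42418 in KO was 7831 CPM at 30 to 50% and 7003 CPM above 50%. Barcodes over the 30% limit held 60305 CPM of Gm42418 in WT and 7439 CPM in KO.

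Cell classes were gated on summed marker genes in kept cells with at least 1500 UMIs, with no member used and with cutoffs set within each matrix, and cells that passed exactly 1 gate were compared. This gave, in WT and KO, 158 and 171 crypt base columnar stem-like cells (Lgr5, Olfm4), 1692 and 660 cycling cells (Mki67, Top2a), 3205 and 1144 Paneth-like cells (Lyz1, defensins), 1133 and 625 goblet-like cells (Muc2, Tff3), 133 and 68 enteroendocrine-like cells (Chga, Chgb), 62 and 51 tuft-like cells (Dclk1, Trpm5) and 1419 and 1066 enterocyte-like cells (Fabp1, Apoa1). Each class is a range above a cutoff, and cutoffs differed between the matrices: 212848 CPM of summed markers in WT and 103575 in KO for Paneth-like, 35400 and 18275 for goblet-like, 4108 and 6843 for enterocyte-like and 1000 and 1239 for cycling cells, with the other 3 equal. Ratios of KO to WT within those classes thus compare cells gated at different marker levels. For the stem gate, which 566 WT and 319 KO cells passed before cells of several gates were set aside, 215 and 175 cells lay within 20% of it on either side, and for the other gates between 6 and 549 in WT and between 5 and 383 in KO did. The median of summed Paneth markers was between 24211 and 57058 CPM in the other WT classes and between 12014 and 17982 CPM in the other KO classes, against 365186 and 323379 CPM in Paneth-like cells, and its part in the levels below was not tested. Median depth also differed, from 2806 UMIs in WT enteroendocrine-like to 22378 in WT Paneth-like cells, and was higher in KO than in WT in every class.

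Malat1 varied 14-fold between WT classes, from 1137 CPM (1129 to 1145) in Paneth-like through 3783 in cycling, 4384 in stem-like, 5925 in goblet-like, 6683 in enterocyte-like and 13707 in tuft-like to 15918 CPM (15561 to 16281) in enteroendocrine-like cells. No neighbors in this order had overlapping intervals, which cover counting error only. In KO the order ran from 480 CPM in Paneth-like cells through cycling (2128), goblet-like (2201), stem-like (3235), enteroendocrine-like (3553) and enterocyte-like (4579) to 5568 CPM in tuft-like cells. Per cell, tuft-like cells held 70.4 Malat1 UMIs in WT and 75.9 in KO, the most of any class, and Paneth-like cells 24.5 and 17.4, the fewest. Neat1 was also lowest in Paneth-like cells (52.3 CPM in WT, 28.0 in KO). It was highest in enteroendocrine-like (536 CPM) and goblet-like cells (421) of WT, and in enterocyte-like cells (170) of KO. Goblet-like cells held the most Neat1 UMIs per cell in both, 2.51 and 1.61.

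Kcnq1ot1 was highest in stem-like cells in both matrices when classes were gated. With clusters in place of gates it was highest in cycling cells of WT (50.1 CPM) and in stem-like cells of KO (8.30 CPM). By gates, Kcnq1ot1 in WT stood at 89.1 CPM (73.6 to 107) in stem-like cells, 40.8 (21.7 to 69.8) in tuft-like and 37.7 (34.7 to 40.9) in cycling cells. It stood at 29.5 (16.1 to 49.6) in enteroendocrine-like cells, and at 9.32, 4.64 and 2.84 CPM in goblet-, enterocyte- and Paneth-like cells. The intervals of tuft-like, cycling and enteroendocrine-like cells overlapped, as did those of enterocyte-like and Paneth-like cells. In KO the top was again in stem-like cells, 18.7 CPM (13.2 to 25.7), followed by tuft-like (7.20) and cycling cells (3.96), and enterocyte-like cells were lowest at 0.31 CPM, on 3 UMIs. In KO each pair of neighbors in the order overlapped. On the log2(CPM + 10) scale its range between classes was 2.95 in WT and 1.48 in KO, against 3.80 and 3.51 for Malat1 and 3.13 and 2.24 for Neat1, and the median range over all genes was 1.59 and 1.28.

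The rRNA-like members and Lars2 were lowest in Paneth-like cells in both matrices, by CPM. Gm42418 stood at 3904 CPM there in WT, between 12384 and 16865 in stem-like, cycling, goblet-like, tuft-like and enterocyte-like cells, and at 22558 CPM in enteroendocrine-like cells. In KO it ran from 359 CPM in Paneth-like to 1913 CPM in enterocyte-like cells. Per cell the classes lay closer together for Gm42418, between 76.5 and 115 UMIs in WT and between 13.05 and 18.99 in KO. By UMIs per cell, Paneth-like cells were lowest only for Gm42418 in KO. They held the most AY036118 UMIs per cell of any KO class (0.649). In WT they held 1.69 Lars2 UMIs per cell, below cycling cells alone (1.83). Their 84.0 Gm42418 UMIs per cell in WT were above enteroendocrine-like (80.4) and tuft-like cells (76.5). AY036118 ranged from 261 to 1658 CPM in WT and from 17.9 to 70.9 in KO, where enterocyte-like cells stood above the other classes and each pair of neighbors below them overlapped, and Lars2 from 78.6 to 285 and from 10.3 to 40.2. Lars2 was highest in enterocyte-like cells of WT and enteroendocrine-like cells of KO, and the intervals of these classes overlapped in both matrices. Gm26917 was highest in tuft-like cells of WT (336 CPM, against 47.2 in Paneth-like cells). In KO its top was in stem-like cells (40.9 CPM, 32.5 to 50.6, against 11.99 in Paneth-like cells). That interval overlapped the one of enteroendocrine-like cells (26.7 to 52.8), and with clusters in place of gates the KO top was in tuft-like cells. All 7 members had a highest class at least 2-fold above the lowest on the log2(CPM + 10) scale in each matrix, as had 78.7% of 11608 genes in WT and 65.2% of 11125 in KO. When each cell was thinned to 1000 UMIs, Paneth-like cells remained lowest for all 7 members in WT, but in KO for Malat1 and Gm42418; cycling cells were then lowest for Neat1, AY036118 and Lars2 and enteroendocrine-like cells for Gm26917 and Kcnq1ot1. The lowest KO classes then held 0.0545 Neat1 UMIs per cell, 0.0147 of Gm26917 and 0 of Kcnq1ot1, so this order rests on few counts. Cells that passed no gate stood at 4486 CPM of Malat1, 17570 of Gm42418 and 31.8 of Kcnq1ot1 in WT and at 2265, 1191 and 4.80 in KO, and cells that passed several at 3790, 8010 and 22.9 in WT and 1895, 746 and 2.81 in KO.

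**Figure D3:**
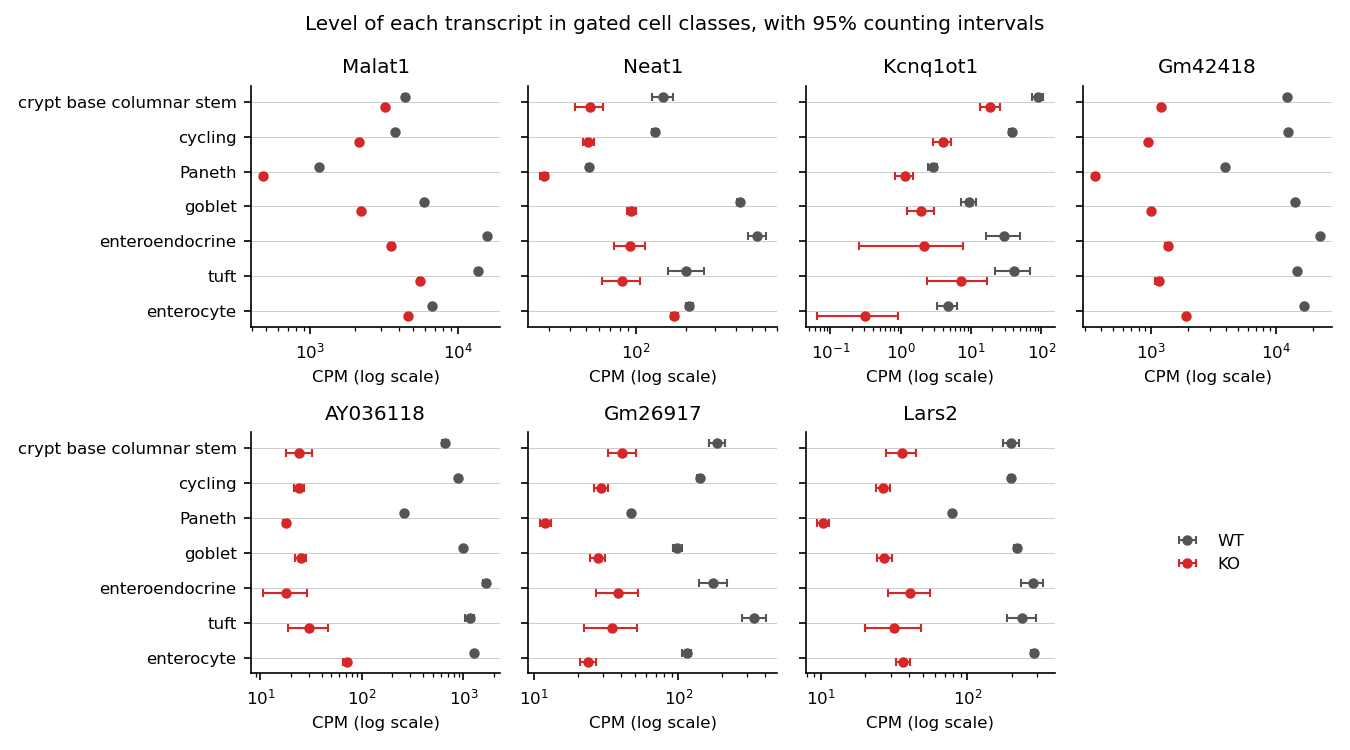
Level of each transcript (CPM, log scale) in 7 gated cell classes of WT (gray) and KO (red); points are pooled levels and bars 95% counting intervals. Paneth-like cells are lowest in WT for all 7, though for Kcnq1ot1 their interval overlaps that of enterocyte-like cells. Kcnq1ot1 is highest in gated stem-like cells of both matrices, and the gap between WT and KO is widest for AY036118.

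Depth within a class was followed by splitting the cells of each class at their median UMIs. Gm42418, Malat1 and Lars2 were higher by CPM in the shallower cells of all 7 classes in both matrices, Gm42418 by log2 ratios of 0.68 to 1.14 in WT and 0.72 to 1.44 in KO and Malat1 by 0.19 to 1.65 and 0.49 to 2.001. AY036118 was higher in 7 WT and 6 KO classes, Neat1 in 6 and 7. Gm26917 was higher in 4 WT and 6 KO classes, with ratios from −0.42 to 0.70 in WT, and Kcnq1ot1 in 5 of 7 in each.

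Ratios between members within the same cells do not depend on the total. For every 100 Gm42418 UMIs, kept WT cells held 7.28 of AY036118, and the 7 WT classes lay between 5.33 and 7.74, a spread of 1.45-fold. In KO the figure was 2.99, with classes from 1.32 in enteroendocrine-like to 4.98 in Paneth-like cells. For Lars2 it was 1.70 in kept WT cells (classes 1.23 to 2.01) and 2.38 in KO (1.90 to 2.94). For Gm26917 it was 0.977 in WT and 2.29 in KO, with classes from 0.676 to 2.26 and from 1.24 to 3.39. The AY036118 ratio was thus lower and those of Gm26917 and Lars2 were higher in KO than in WT, and the same direction was seen in each of the 7 classes. The WT and KO intervals overlapped for Gm26917 in tuft-like cells and for Lars2 in tuft-like and enterocyte-like cells. The Neat1 to Malat1 ratio was 4.30 per 100 in WT and 3.38 in KO, with goblet-like cells highest in WT (7.10) and Paneth-like cells in KO (5.84), and tuft-like cells lowest in both (1.47 and 1.47). Gm42418 UMIs per 100 Malat1 UMIs were 303 in WT and 48.1 in KO, and the class ranges, 109 to 343 and 20.8 to 74.9, did not overlap.

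**Figure D4:**
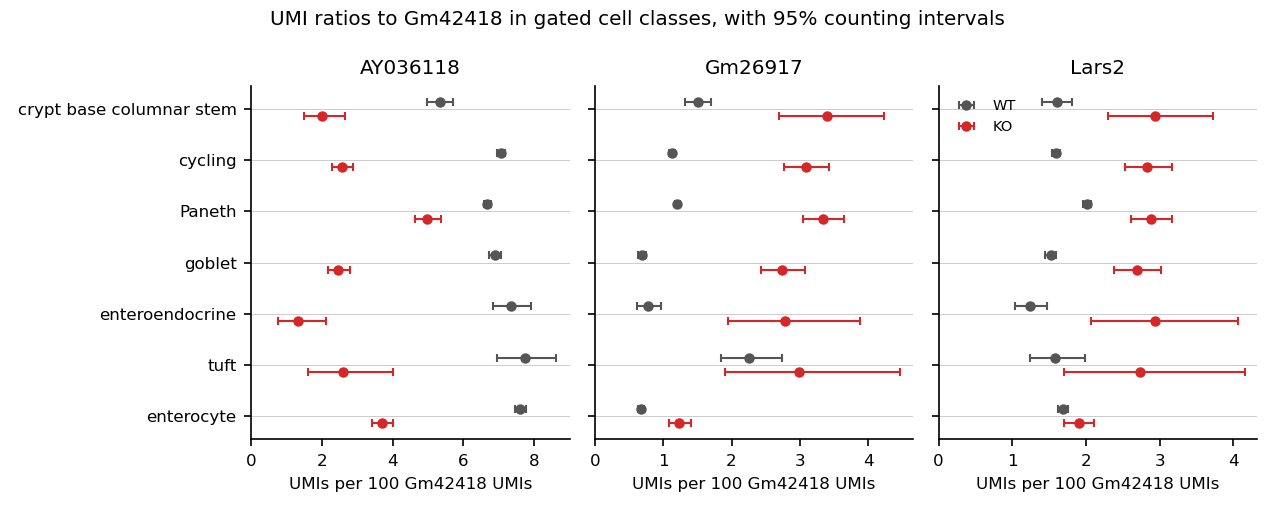
UMIs of AY036118, Gm26917 and Lars2 per 100 Gm42418 UMIs in 7 gated classes of WT (gray) and KO (red), with 95% counting intervals. AY036118 lies lower in KO than in WT in each class, while Gm26917 and Lars2 lie higher. Intervals overlap for Gm26917 in tuft-like cells and for Lars2 in tuft-like and enterocyte-like cells.

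KO against WT, all 7 members were lower in kept cells by the pooled level. AY036118 stood at 669 CPM (664 to 673) in WT and 31.3 CPM (30.3 to 32.4) in KO, a log2 ratio of −4.42 (−4.46 to −4.37) that was the 10th lowest of 12767 genes. Gm42418 stood at 9188 CPM (9172 to 9204) in WT and 1047 CPM (1041 to 1053) in KO, 8.78-fold lower (log2 ratio −3.13), with 92.1 and 14.2 UMIs per cell. Lars2 went from 156 to 24.96 CPM (−2.65, −2.71 to −2.59), Kcnq1ot1 from 13.7 to 2.69 CPM (−2.35, −2.53 to −2.18) and Gm26917 from 89.8 to 24.0 CPM (−1.90, −1.96 to −1.84). Neat1 went from 130 to 73.4 CPM (−0.83, −0.87 to −0.79) and Malat1 from 3037 to 2174 CPM (−0.48, −0.49 to −0.48), while Malat1 UMIs per cell were 30.4 and 29.4. Thus 5 of 7 were at least 2-fold lower, as were 7.37% of all 12767 genes; this contrast was among the values that chose them, and nothing is read from the count.

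The median ratio of all genes was −0.05, and it fell with transcript length, from 0.48 in the shortest quartile of genes through 0.11 and −0.18 to −0.47 in the longest. Among the 797 genes with a mean of at least 100 CPM, 13 were 2-fold lower in KO. Of the genes past 2-fold, 65.2% were lower in KO. With genes above 1% of UMIs and the members left out of the total, every ratio moved by −0.37 and that share was 94.8%; it was 80.5% with each cell weighing the same and 89.6% with equal weight for each class. The direction for Malat1 depended on the weighting: with each cell weighing the same it was 0.38 higher in KO on the log2 scale, and Neat1 was then at −0.06.

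**Figure D5:**
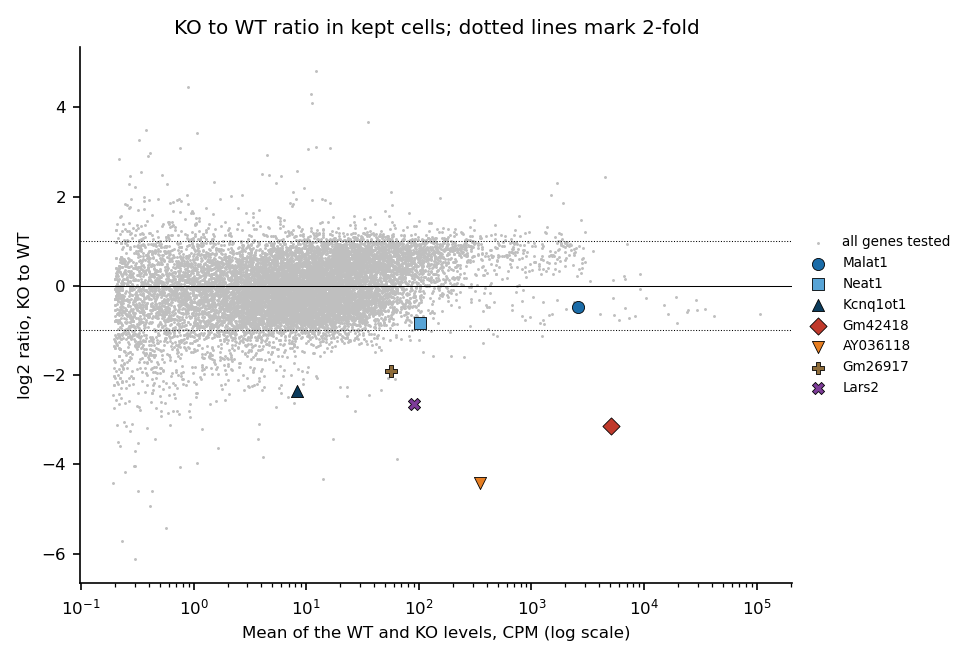
Log2 ratio of KO to WT in kept cells (vertical axis) against the mean of both levels in CPM (horizontal axis, log scale) for 12767 genes (gray) and the 7 members (colored). Gm42418, AY036118, Lars2, Kcnq1ot1 and Gm26917 lie below the lower dotted line, at log2 ratios from −4.42 to −1.90, while Malat1 and Neat1 lie between the lines.

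The lower KO levels of the rRNA-like members and Lars2 were seen in each class. Gm42418 had log2 ratios from −4.04 in enteroendocrine-like to −3.14 in enterocyte-like cells, AY036118 from −6.53 to −3.87, Lars2 from −3.01 to −2.49 and Gm26917 from −3.28 to −1.84. The classes' own medians over all genes lay between −0.42 and 0.13. Kcnq1ot1 was at −2.25 (−2.82 to −1.71) in stem-like and −3.25 (−3.71 to −2.83) in cycling cells, and at −1.33 in Paneth-like cells. Malat1 ranged from −2.16 in enteroendocrine-like to −0.44 in stem-like cells, and Neat1 from −2.54 in enteroendocrine-like to −0.30 in enterocyte-like cells. Of the members with enough UMIs, 6 of 7 were at least 2-fold lower in stem-like, cycling and Paneth-like cells (backgrounds 9.53%, 18.3% and 6.47% of genes), 7 of 7 in goblet-like (13.2%), 6 of 6 in enteroendocrine-like (17.8%) and in tuft-like (11.5%) and 4 of 6 in enterocyte-like cells (20.4%).

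Within bins of depth the members divided. In 6 bins of total UMIs over all barcodes, Gm42418 was lower in KO by log2 ratios from −3.08 to −2.16, AY036118 from −4.92 to −3.37, Lars2 from −2.88 to −1.66, Gm26917 from −2.64 to −1.13 and Kcnq1ot1 from −3.56 to −0.87. Malat1 lay on both sides of 0, from −0.37 at 5000 to 10000 UMIs to 0.64 below 1000, and Neat1 from −0.76 to 0.22. The median over all genes in these bins went from −0.42 to 0.85. The bins match total UMIs alone. Median mitochondrial share was 18.1% in WT and 12.3% in KO below 1000 UMIs, and 31.0% and 48.1% at 1000 to 2000. At 2000 to 5000 UMIs it was 9.68% and 31.7%, and in each deeper bin it was also higher in KO. Its part in these ratios was not tested.

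Genes related to the members by function or position were set beside them, on the same scale as the KO to WT ratios above. With the total that moves every ratio by −0.37, values between 0 and 0.37 change sign, the medians of 0.21 and 0.28 below among them. Of the 16 other mitochondrial aminoacyl-tRNA synthetases, 1 was 2-fold higher in KO and none lower, with a median log2 ratio of 0.21. The best covered were Fars2 (0.49), Iars2 (−0.29), Rars2 (0.17) and Tars2 (0.25), and the one past 2-fold was Yars2 (1.195), named after its value was seen. Of 17 genes of rRNA transcription and processing none passed 2-fold in either direction (median 0.28); the nucleolar proteins Npm1 and Ncl were at 0.59 and −0.11, the polymerase I subunit Polr1d at 0.81 and the rRNA methyltransferase Fbl at 0.52. Of 15 paraspeckle and speckle proteins none passed (median −0.04), among them the splicing factors Srsf3 (0.53) and Srsf2 (0.51), Hnrnpk (0.43) and Srrm2 (−0.11). Of 5 tested genes beside Malat1 and Neat1, 1 was higher, Tigd3 (1.23), also named after its value was seen, and none was lower.

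Of 11 tested genes of the imprinted Kcnq1 domain, 4 were 2-fold higher in KO and none lower, with a median of 0.83, against a background of 3.94% of genes higher; with the other total named above none of the 4 would pass 2-fold. Kcnq1 itself, the potassium channel gene that contains Kcnq1ot1, was at 0.05 (−0.03 to 0.13), with 20.5 CPM in WT and 21.2 in KO. The tetraspanin Cd81 (1.08) and Tssc4 (1.12) were 2 of the 4; the others, Ascl2, a stem cell transcription factor (1.18), and Phlda2 (1.18), were named after their values were seen, to complete the count. Nap1l4, a histone chaperone, was at 0.05. Of 6 tested other nuclear long noncoding RNAs 1 was 2-fold lower, the thinly counted Meg3 (−2.16), named after its value was seen, and the median was −0.87; Xist was at −0.43, Airn at −0.92, Jpx at −0.38 and Ftx at −0.87. Of 5 snoRNA host transcripts none passed (median 0.49).

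Across the 14 classes of both matrices, the genes whose log2(CPM + 10) was most like that of each member were found among 9815 genes. For Gm42418 they were Lars2 (Pearson r = 0.996), AY036118 (0.98) and mt-Atp8 (0.97), a mitochondrially encoded subunit of ATP synthase, and the same genes surrounded AY036118 and Lars2. Malat1 was most like Pdlim5 (0.96), Dapp1 (0.96) and Atxn7 (0.96), Neat1 like the zinc finger factor Klf6 (0.98), Nbr1 (0.96) and Nlrc4 (0.96), Kcnq1ot1 like the DNA repair kinase gene Prkdc (0.96), Zfp65 (0.96) and Swap70 (0.95), and Gm26917 like Prdm2 (0.97), Ap5m1 (0.96) and the exoribonuclease gene Xrn1 (0.96). These points fall into a WT and a KO set and the classes share a library and its depth. With each matrix centered on its own mean, the 3 nearest genes of Gm42418, AY036118 and Lars2 all changed. None of these was then a member or mt-Atp8. On that scale Gm42418 and Lars2 stood at 0.97, Gm42418 and AY036118 at 0.84, Gm42418 and Malat1 at 0.92 and Malat1 and Neat1 at 0.80. Gm26917 and Gm42418 went from 0.92 to 0.67, and Kcnq1ot1 stood at 0.33 with Malat1 and 0.03 with Neat1.

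Within classes, in cells thinned to 1500 UMIs, Spearman's rho of Gm42418 with AY036118 over cells was between 0.43 and 0.78 in the 7 WT classes and between −0.08 and 0.22 in KO, where AY036118 had 0.250 to 0.649 UMIs per cell before thinning. Gm42418 with Malat1 stood between 0.10 and 0.67 in WT and between 0.22 and 0.56 in KO, and Malat1 with Neat1 between −0.03 and 0.33 and between −0.02 and 0.33. These cells share a library, and at such counts a low rho is no finding.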

How the data were processed

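UMI counts per gene and barcode were deposited by the authors as 1 matrix per genotype, with 27998 genes; pooled animals cannot be separated. Per the file header the counts come from Cell Ranger 4.0.0, whereas the submitters' processing notes name Cell Ranger 2.1.1 and mm10. The paper gives default parameters; whether strand was used is not given in the sources used here. Total UMIs were 134876816 in WT and 123794575 in KO, and more barcodes passed the limits below than the study lists cells for either genotype.

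Here barcodes with at least 200 genes and at most 30% mitochondrial UMIs were kept, after the study's limits. Levels are UMIs per 1000000 UMIs (CPM), pooled over cells, with exact Poisson intervals; log2 ratios have exact conditional binomial intervals, at 95%, for counting error only. With 1 matrix per genotype no test was run; called means past 2-fold among genes with at least 50 UMIs. PCR duplicates are removed by UMIs. Gates required at least 1500 UMIs, 3 marker genes and a summed marker CPM (plus 200) 3 to 10 times that of the 25th percentile of the same matrix, with cutoffs set with the data in view. Scrublet marked no cell in either matrix, so its calls were not used and doublets were not removed; the study's own doublet calls were not used here; cells passing several gates (1666 WT, 849 KO) or none (1120 and 1247) were set aside. Gene models were GENCODE M21 (GRCm38), which matched 27645 IDs. Ratios were tested on simulated data. Members and gene lists were chosen with earlier results of these data known. The named genes are the 7 members, the 3 genes most like each across classes and the 4 best covered of each list, plus 5 genes that complete a count of genes past 2-fold and were chosen after their values were seen; 1 item is not reported here. Alternatives covered totals, filters, thinning, weighting, gates and clusters. Tools were Python 3.11.15, numpy 2.4.6, scipy 1.17.1, pandas 2.3.3 and scanpy 1.11.5.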

Additional observations from a re-analysis of the deposited data

How the results depend on the processing

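No paired analysis was possible because each genotype is 1 pooled matrix whose cells carry no sample number, and leaving out a replicate was not possible for the same reason. The KO to WT log2 ratios of the members kept their sign under all 10 alternatives, except that of Malat1, which was 0.38 with each cell weighing the same; the count of members at least 2-fold lower stayed within 1.5 times of 5. With each cell weighing the same, Neat1 was at −0.061, Gm42418 −2.40, AY036118 −4.20, Gm26917 −1.67 and Lars2 −2.23. Leaving mitochondrial UMIs out of the total gave Malat1 −0.47 and Gm42418 −3.12. Leaving out genes above 1% and the members gave Malat1 −0.85, Neat1 −1.20, Kcnq1ot1 −2.72, Gm42418 −3.50, AY036118 −4.79, Gm26917 −2.27 and Lars2 −3.02; this total moved all genes by −0.37, and 94.8% rather than 65.2% of genes past 2-fold were then lower in KO, 2346 rather than 941 genes. That share was 80.5% (1634 genes) with each cell weighing the same and 89.6% (2747 genes) with equal weight for each gated class, where the median of all genes moved by −0.14 and −0.33. Equal weight for each gated class gave Malat1 −1.24, Neat1 −1.57, Kcnq1ot1 −2.60, Gm42418 −3.61, AY036118 −5.03, Gm26917 −2.42 and Lars2 −2.84. A mitochondrial limit of 15% gave Malat1 −0.55, Neat1 −0.90 and Gm42418 −3.22, and no such limit Malat1 −0.33, Neat1 −0.69, Gm42418 −2.89, AY036118 −4.29 and Lars2 −2.47. With at least 500 genes, Malat1 was at −0.62, Neat1 −0.93 and Gm42418 −3.24. Without any filter on barcodes, Malat1 was at −0.33, Neat1 −0.68, Gm42418 −2.94 and Lars2 −2.50. Removing the highest 10% of Scrublet scores gave Malat1 −0.43. Thinning to 1000 UMIs left out 1468 WT and 2257 KO cells and gave Malat1 −0.26, Neat1 −0.64, Gm42418 −3.31, AY036118 −4.92, Gm26917 −2.04 and Lars2 −2.90. Of the depth ratios, that of Kcnq1ot1 in KO went to −0.084 with each barcode weighing the same, on 6 UMIs; the cause was not tested. On thinning, the log2 range between classes went in WT from 1.86 to 0.97 for Lars2, from 2.67 to 1.55 for AY036118 and from 2.53 to 1.63 for Gm42418, and in KO from 2.41 to 1.38 for Gm42418 and from 1.77 to 2.74 for Gm26917. The thinned KO classes held from 0.0147 to 0.0980 Gm26917 UMIs per cell, so its change rests on few counts. In kept cells only, the depth ratio went in WT from 2.83 to 3.56 for Malat1, from 2.47 to 3.21 for Neat1 and from 1.67 to 2.39 for Kcnq1ot1, and in KO from 3.80 to 4.48 for Malat1 and from 0.04 to 0.68 for Kcnq1ot1. Low counts limit Kcnq1ot1 in KO, with 316 UMIs in kept cells.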
